A study of Capra hircus with 12 samples.

Results

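The genes described here encode the enzymes and transporters that build and sulfate glycosaminoglycan chains, followed in cultured goat cells of the temporomandibular joint (TMJ). The list of 41 genes was set by gene symbol from pathway knowledge. Its rule used no measured value, but the list was chosen with earlier results of these data known. Of these, 40 had a row among the 28910 gene rows of the counts, and CHPF2 was not analysed here. A gene was tested in a layer where at least 3 of its 6 libraries held 10 or more counts, which left 39 members in superficial layer cells (SLC) and 40 in middle cartilage layer cells (MLC). The gene kept out in SLC was CHST7, at 0.0516 to 0.516 CPM there (counts scaled to a library of fixed size). The 12 libraries form 4 groups of 3, SLC and MLC cells given IL-1β alone and SLC and MLC cells given IL-1β + LOXL2. All cells came from the condylar fibrocartilage of female goats aged 6 to 9 months, were expanded on plastic to passages 3 to 5 and received 10 ng of the inflammatory cytokine IL-1β for 1 h. The groups labelled IL-1β + LOXL2 were transduced overnight beforehand with an adenovirus carrying LOXL2, a lysyl oxidase that crosslinks collagen. For the sequenced cultures the methods name no empty virus for the cells with IL-1β alone (they name one for the apoptosis assay), so LOXL2 and the adenovirus cannot be told apart here. Cells given vehicle were not analysed here. The groups pose the questions of how the pathway differed with LOXL2 in each layer, and between the layers under each treatment.

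Glycosaminoglycans are long sugar chains that are built in the Golgi on serines of proteoglycan core proteins and are then sulfated, and their negative charge holds water in cartilage. Chondroitin, dermatan and heparan sulfate start on the same linker of xylose, galactose and glucuronic acid, and the next sugar added decides which chain follows. Sulfotransferases and epimerases then modify the growing chain, using an activated form of sulfate (PAPS) made in the cytosol. The members were grouped as 9 genes for the linker and nucleotide sugars, 15 for chondroitin and dermatan sulfate (14 of them in the tables), 12 for heparan sulfate and 5 for sulfate supply.

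Library totals ranged from 14158607 to 28931652 counts. The goat LOXL2 gene was examined as a check of the labels and was not higher in the transduced groups. It ranged from 614 to 633 CPM with IL-1β and from 457 to 560 CPM in the SLC libraries labelled IL-1β + LOXL2, and from 768 to 877 against 743 to 816 CPM in MLC. The sequence carried by the vector is not given in the sources used here, so it is not known whether its transcript would be counted, and every direction below refers to libraries as labelled. The libraries labelled IL-1β + LOXL2 are called labelled libraries. The 7 chondrocyte markers summed to 1640 to 1790 CPM in MLC with IL-1β and 1310 to 1730 CPM in MLC labelled IL-1β + LOXL2. In SLC the same sums were 1240 to 1360 and 649 to 1240 CPM, and COL2A1 and COL9A1, which define hyaline cartilage, were at 0 in all 3 SLC libraries with IL-1β. The 5 smooth muscle and pericyte markers summed to 877 to 980 CPM in MLC with IL-1β and 1140 to 1470 CPM in MLC labelled IL-1β + LOXL2, against 1440 to 1880 and 1760 to 2080 CPM in SLC. ACTA2, at 802 to 2000 CPM, carried these sums. The 6 superficial and fibrous layer markers summed to 60200 to 71900 CPM over all libraries, with TNMD at 0 throughout. That sum was carried by COL1A1, COL1A2 and COL3A1, with PRG4 at 3.64 to 7.26 CPM and SCX at 4.28 to 11.8 CPM. The 5 leukocyte markers summed to 55.8 to 141 CPM, mostly CD14 (47.1 to 133 CPM), with PTPRC at 0 in both IL-1β groups. The endothelial marker sum was at most 5.24 CPM and the bone marker sum at most 4.13 CPM in any library. The part of cell make-up in the results below was not tested, and in bulk RNA fewer cells of a type and less RNA per cell cannot be told apart.

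More members of the pathway were lower than higher with LOXL2 in both layers. In SLC, 27 of 39 members had a negative log2 fold change (IL-1β + LOXL2 minus IL-1β) and 12 a positive one, with a median of -0.28 and a range from -1.77 to 0.80, beside a median of 0.01 over all 14164 genes tested, 50.7% of which were positive. In MLC, 25 of 40 members were negative and 15 positive, with a median of -0.22 and a range from -1.66 to 0.84, beside 0.01 over all 13806 genes tested, 50.9% of which were positive. The 0.84 is the value of CHST7, which entered the MLC test through its counts in the labelled libraries.

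In SLC, the quasi-likelihood test of edgeR, adjusted by Benjamini-Hochberg over all genes, called none of the 39 members and 0% of all genes at a threshold of 0.05. At an unadjusted p under 0.05 it called 21 members (4 higher, 17 lower), beside 43.2% of all genes (23% and 20.2%), and DESeq2 called 18 (2 higher, 16 lower), beside 33.1% of the genes it adjusted. The 3 libraries of each group did not overlap for 23 members (6 higher, 17 lower), beside 48.9% of all genes (25.2% and 23.7%). In MLC, edgeR called 13 members (2 higher, 11 lower; 32.5% of the 40), beside 21.6% of all genes (9.88% higher and 11.7% lower). Groups did not overlap for 27 members in MLC (7 higher, 20 lower), beside 41.1% of all genes (20.7% and 20.4%). The 7 include CHST7, which entered the MLC test through its labelled libraries (17, 19 and 16 counts, against 8, 5 and 12 with IL-1β). At an unadjusted p under 0.05, 22 members passed (5 higher, 17 lower), beside 39% of all genes (19.1% and 19.9%), and DESeq2 called 15 (3 higher, 12 lower), beside 27%. The 13 MLC calls kept their sign in every other fit, but none passed in a fit that left out IL-1β replicate 1, IL-1β replicate 3 or IL-1β + LOXL2 replicate 2, or in a fit on all 12 libraries, where 15, 17, 14 and 16 members passed unadjusted, beside 28.8%, 27.5%, 26.6% and 25.7% of all genes. Without IL-1β replicate 2 there were 6 calls, beside 6.11% of all genes, and without IL-1β + LOXL2 replicate 3 there were 3 (XYLT1, HS2ST1 and SLC26A2), beside 3.62%.

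**Figure D1:**
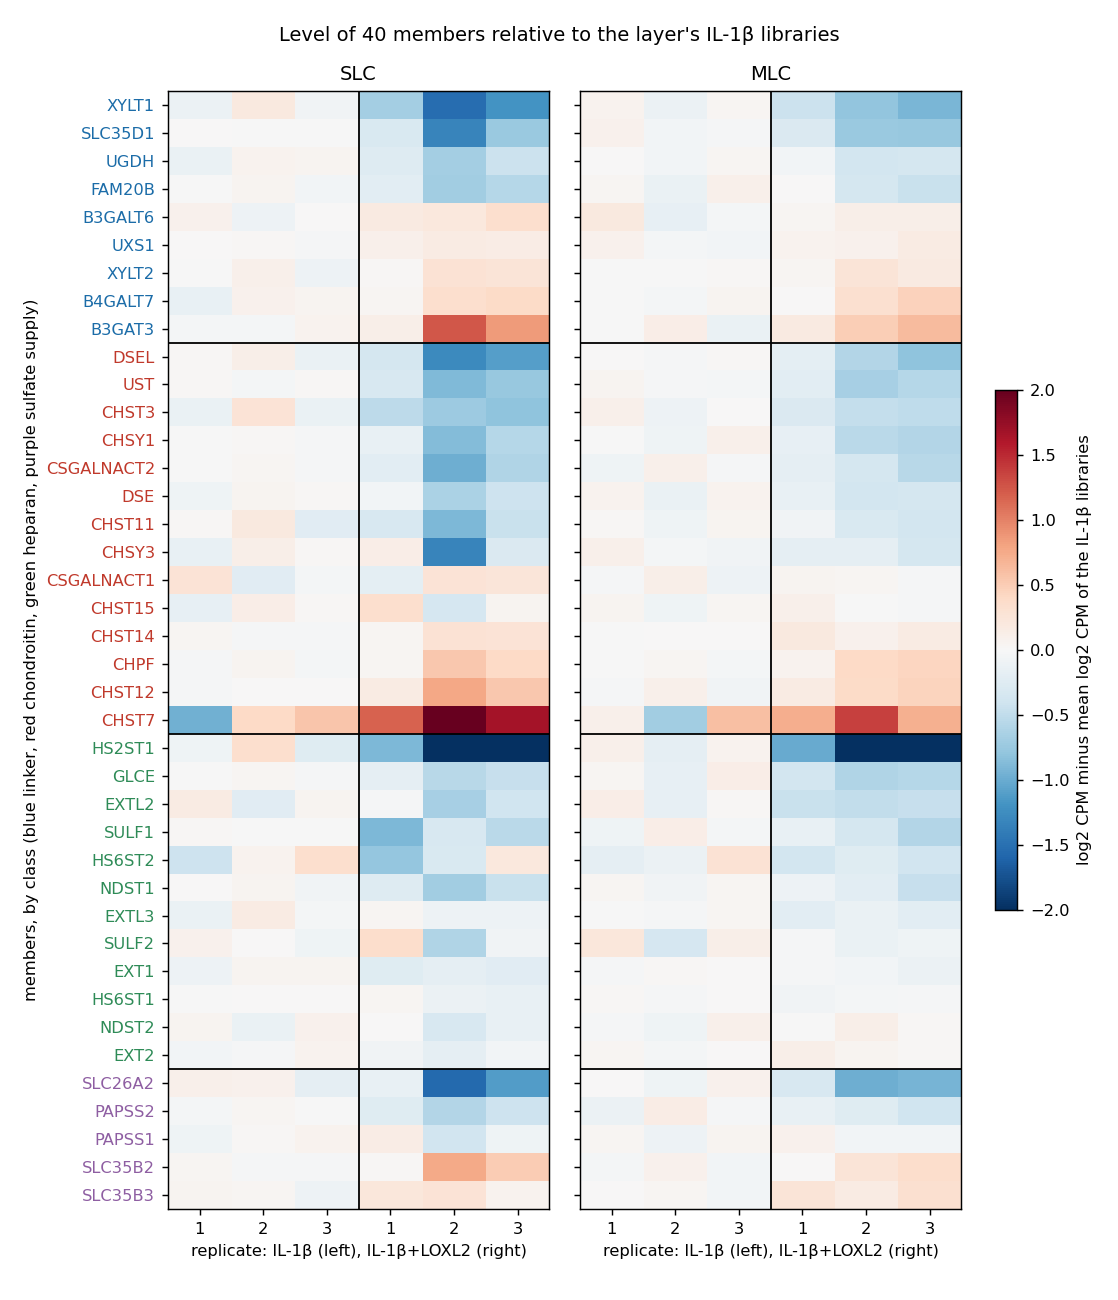
Each row is 1 of 40 members and each column 1 library, and the colour gives log2 CPM minus the mean log2 CPM of the 3 IL-1β libraries of the same layer, with the scale ending at -2 and 2. XYLT1, SLC35D1, HS2ST1 and SLC26A2 are blue in IL-1β + LOXL2 replicates 2 and 3 of both layers and paler in replicate 1, and B3GAT3 and CHST12 are red.

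The linker group split by gene. XYLT1, a xylosyltransferase that puts the first sugar on the core protein (chromosome 25, 15397210 to 15747514, genome build ARS1.2), was at 80.5, 99.8 and 82.8 CPM in the SLC libraries with IL-1β and at 54.4, 30.4 and 38.2 CPM in those labelled IL-1β + LOXL2. In MLC it was at 99, 87.6 and 97.5 CPM with IL-1β and at 70.4, 54.5 and 50.2 CPM labelled IL-1β + LOXL2. All 3 labelled libraries lay below all 3 IL-1β libraries in each layer. The log2 fold change was -1.11 in SLC (SE 0.219, adjusted p = 0.0706) and -0.70 in MLC (SE 0.124, adjusted p = 0.0187), so XYLT1 fell in MLC by the test. Its paralog XYLT2, with the same activity, had log2 fold changes of 0.18 in SLC and 0.16 in MLC, neither past the threshold.

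SLC35D1, which carries UDP-glucuronic acid and UDP-N-acetylgalactosamine into the endoplasmic reticulum, was at 43.2, 39.1 and 40 CPM in MLC with IL-1β and at 33.3, 24.3 and 24.1 CPM with IL-1β + LOXL2, a fall of the log2 level (-0.58, SE 0.131, adjusted p = 0.0202). In SLC it was at 43.7 to 44.3 CPM against 35.5, 17.7 and 26.3 CPM (log2 fold change -0.74, adjusted p = 0.0729). B3GAT3, the glucuronyltransferase that closes the linker (chromosome 29, 41290011 to 41294863), went the other way. It was at 59.7, 65.5 and 54.9 CPM in MLC with IL-1β and at 68, 83.8 and 93.1 CPM with IL-1β + LOXL2, and it rose by the test (log2 fold change 0.44, SE 0.122, adjusted p = 0.0288). In SLC it was at 48.9, 48.8 and 52.6 CPM against 54.3, 119 and 90 CPM (log2 fold change 0.80, SE 0.254, adjusted p = 0.0731), a value that was 0.52 without labelled replicate 2. The groups of both genes did not overlap in either layer, and B3GAT3 had the most positive log2 fold change of the linker group in each.

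The other linker members did not pass the test in either layer. UGDH, which makes UDP-glucuronic acid, had log2 fold changes of -0.46 in SLC (SE 0.136) and -0.25 in MLC (SE 0.0984), with all labelled libraries lower in both layers. FAM20B, the kinase that phosphorylates the linker xylose, was at -0.49 in SLC and -0.25 in MLC. The galactosyltransferases B4GALT7 (0.24 and 0.27) and B3GALT6 (0.23 and 0.09), and UXS1, which makes UDP-xylose (0.13 and 0.10), were positive in both layers. The group thus held 5 positive and 4 negative members in each layer, with a median of 0.13 in SLC and 0.09 in MLC. By the test 1 member rose and 2 fell in MLC (33.3%), beside 21.6% of all genes.

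Among the 14 chondroitin and dermatan sulfate genes, 5 fell and 1 rose in MLC (42.9%), beside 21.6% of all genes (11.7% lower and 9.88% higher). DSEL, an epimerase that turns glucuronic into iduronic acid in dermatan sulfate, was at 118, 115 and 119 CPM in MLC with IL-1β and at 102, 78 and 67.1 CPM with IL-1β + LOXL2 (log2 fold change -0.51, SE 0.131, adjusted p = 0.0239). Its SLC levels were 134, 143 and 120 CPM against 104, 54.4 and 61.4 CPM (log2 fold change -0.86, SE 0.246, adjusted p = 0.0706), the most negative value of the group in each layer. DSE, the other epimerase, had log2 fold changes of -0.36 in SLC and -0.29 in MLC (adjusted p = 0.0578). UST, which sulfates the uronic acid of chondroitin and dermatan sulfate, fell in MLC from 36.4, 34.4 and 33.9 CPM to 30, 22 and 23.6 CPM (log2 fold change -0.47, SE 0.124, adjusted p = 0.0264). In SLC it was at 37.6 to 39.2 CPM against 30.8, 20.9 and 22.8 CPM (log2 fold change -0.65, SE 0.163, adjusted p = 0.0706). Neither UST nor DSEL had overlapping groups in either layer.

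The polymerising enzymes differed among themselves. CHSY1, a chondroitin synthase, was at 45, 42.5 and 48.4 CPM in MLC with IL-1β and at 40.3, 31.1 and 30.3 CPM with IL-1β + LOXL2 (log2 fold change -0.42, SE 0.122, adjusted p = 0.0336), and at 36.3 to 37.5 CPM against 33.3, 20.2 and 24.8 CPM in SLC (log2 fold change -0.51, SE 0.185, adjusted p = 0.0852). Its paralog CHSY3 had log2 fold changes of -0.39 in SLC and -0.24 in MLC without passing. CHPF, which works with the synthases, had positive log2 fold changes of 0.33 in SLC and 0.31 in MLC (adjusted p = 0.112 and 0.0505), at 268 to 282 CPM against 288, 360 and 369 CPM in MLC. CSGALNACT2, a transferase that adds the first N-acetylgalactosamine and so starts a chondroitin chain, was at 67.7, 77.6 and 71.3 CPM in MLC with IL-1β and at 63.8, 56.3 and 49 CPM with IL-1β + LOXL2 (log2 fold change -0.36, SE 0.11, adjusted p = 0.0394). Its SLC levels were 107 to 112 CPM against 93.7, 55.2 and 71.6 CPM (log2 fold change -0.58, SE 0.189, adjusted p = 0.0745), and like CHSY1 it had no overlap of groups in either layer. CSGALNACT1, with the same activity, was at 0.10 in SLC and 0.02 in MLC on the log2 fold change scale. The synthases CHSY1 and CHSY3 were thus negative and CHPF positive in both layers of the main fit. CSGALNACT1 was near 0 (adjusted p = 0.746 in SLC and 0.932 in MLC), and reached -0.01 and -0.03 in fits without 1 library. With the trend of each library on genomic span (gene length with introns) taken out, CHSY3 was at 0.01 in SLC and 0.06 in MLC. CHSY1, CHPF and CSGALNACT1 kept their sign there.

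The sulfotransferases of this group also went both ways. CHST3 and CHST7 sulfate one carbon of the N-acetylgalactosamine in chondroitin, and CHST11 and CHST12 another. CHST3 fell in MLC from 37.7, 32.9 and 35.3 CPM to 28.7, 25.4 and 24.9 CPM (log2 fold change -0.42, SE 0.107, adjusted p = 0.0237). In SLC it was at 23.5, 31.2 and 23.6 CPM against 18, 15.7 and 14.8 CPM (log2 fold change -0.70, SE 0.157, adjusted p = 0.0706). CHST12 (chromosome 25, 41658724 to 41677997) rose in MLC, from 38.2, 41.3 and 36.7 CPM to 43.5, 50.7 and 52.9 CPM (log2 fold change 0.34, SE 0.106, adjusted p = 0.0422). The SLC levels of CHST12 were 27.2, 27.9 and 27.9 CPM against 31, 47.4 and 40.2 CPM (log2 fold change 0.50, SE 0.157, adjusted p = 0.0721). For both genes every labelled library lay on 1 side of the IL-1β libraries in each layer. CHST11, which acts at the same carbon as CHST12, had log2 fold changes of -0.56 in SLC (adjusted p = 0.0783) and -0.25 in MLC (adjusted p = 0.158).

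CHST7 was close to the limit of detection, with 5 to 12 counts per library in MLC with IL-1β and 16 to 19 with IL-1β + LOXL2. It entered the MLC test through the labelled libraries. Its log2 fold change of 0.84 in MLC (SE 0.409, adjusted p = 0.147) did not pass the test, and its row overlaps SLC9A7 on the genome. CHST14, which sulfates dermatan, was at 0.19 in SLC and 0.15 in MLC, and CHST15, which adds a further sulfate to chondroitin, at 0.03 and 0.02. Over the group the median was -0.39 in SLC (13 genes, 5 positive and 8 negative) and -0.24 in MLC (14 genes, 6 positive and 8 negative).

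**Figure D2:**
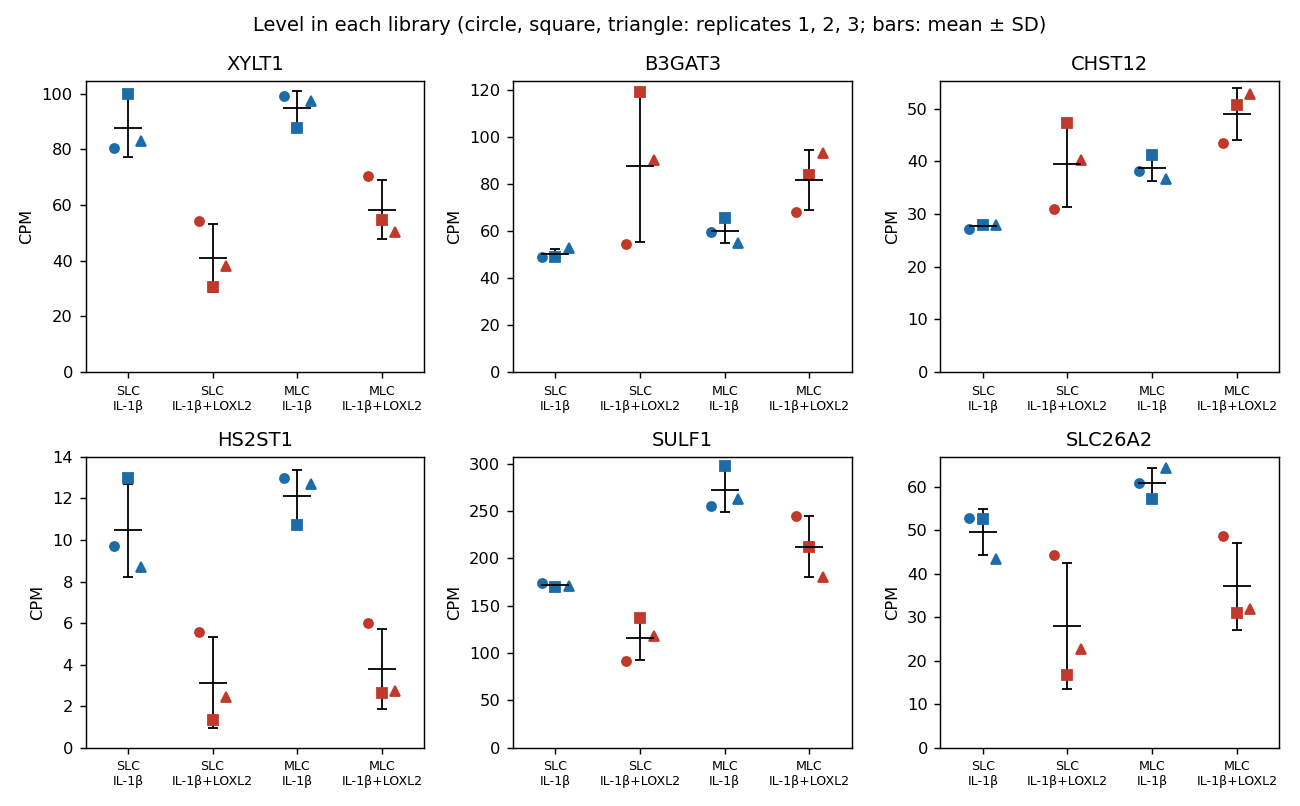
Each panel gives CPM of 1 member in the 12 libraries, with circles, squares and triangles for replicates 1, 2 and 3, a horizontal bar for the mean and error bars for the SD (n = 3). HS2ST1 and XYLT1 are lower and B3GAT3 and CHST12 higher in every library labelled IL-1β + LOXL2 of both layers, while the SLC groups of SLC26A2 overlap (43.4 to 52.8 against 16.8 to 44.3 CPM).

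In the heparan sulfate group all 12 members were negative in SLC (median -0.26) and 10 of 12 in MLC (median -0.22). By the test 3 fell in MLC (25%), beside 21.6% of all genes called (11.7% lower). With the trend of each library on genomic span (gene length with introns) taken out, 6 of the 12 were positive in SLC (median 0.03) and 5 of the 12 in MLC (median -0.02). HS2ST1, the sulfotransferase for the uronic acid of heparan sulfate (chromosome 3, 64078491 to 64266152), had the largest log2 fold change in size of all members in each layer. It was at 13, 10.7 and 12.7 CPM in MLC with IL-1β and at 5.99, 2.65 and 2.71 CPM with IL-1β + LOXL2, from 164 to 190 counts against 37 to 116. In SLC it was at 9.7, 13 and 8.69 CPM against 5.56, 1.33 and 2.46 CPM. The groups did not overlap in either layer. The log2 fold change was -1.66 in MLC (SE 0.258, adjusted p = 0.0187) and -1.77 in SLC (SE 0.467, adjusted p = 0.0706). Without IL-1β + LOXL2 replicate 1 the MLC value was -2.19.

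GLCE, the epimerase of heparan sulfate, fell in MLC from 23, 19.9 and 24.4 CPM to 17.4, 14.8 and 15.1 CPM (log2 fold change -0.51, SE 0.125, adjusted p = 0.0227). Its SLC levels of 21.6 to 22.5 CPM stood against 19.3, 14.9 and 16 CPM (log2 fold change -0.40, SE 0.134, adjusted p = 0.0763). SULF1, a secreted sulfatase that removes sulfate from finished heparan sulfate chains (chromosome 14, 48647362 to 48839748), fell in MLC from 255, 297 and 263 CPM to 245, 212 and 180 CPM (log2 fold change -0.36, SE 0.113, adjusted p = 0.0418). In SLC SULF1 was at 170 to 174 CPM against 92, 137 and 118 CPM (log2 fold change -0.58, SE 0.148, adjusted p = 0.0706), with replicate 1 the lowest labelled library. Both genes had non-overlapping groups in each layer. SULF2, with the same activity, had log2 fold changes of -0.08 in SLC and -0.10 in MLC, with overlapping groups.

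No member that builds the heparan sulfate chain or sulfates its glucosamine passed the test in either layer. EXT1 and EXT2 form the polymerase of heparan sulfate, and their log2 fold changes were -0.23 and -0.12 in SLC and -0.07 and 0.06 in MLC. EXT2 and NDST2 were the members with opposite signs in the 2 layers, and neither value passed (adjusted p of 0.349 and 0.608 for EXT2). EXTL3, which adds the first N-acetylglucosamine, was at -0.07 in SLC and -0.19 in MLC, and EXTL2, which adds that sugar to the linker, at -0.35 and -0.47 (adjusted p = 0.0582 in MLC). NDST1 and NDST2 replace acetyl groups by sulfate, and their log2 fold changes in SLC were -0.46 and -0.16, those in MLC -0.25 and 0.04. HS6ST1 and HS6ST2, which sulfate the glucosamine, were at -0.08 and -0.28 in SLC and -0.04 and -0.35 in MLC, with wide error for HS6ST2 (SE 0.388 and 0.223).

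In the sulfate supply group 1 of 5 members (20%) passed the test in MLC, beside 21.6% of all genes. SLC26A2, the transporter that brings sulfate into the cell and whose loss causes chondrodysplasia (chromosome 7, 49103643 to 49133638), was at 60.9, 57.1 and 64.3 CPM in MLC with IL-1β and at 48.7, 30.9 and 31.8 CPM with IL-1β + LOXL2. It fell there by the test (log2 fold change -0.71, SE 0.153, adjusted p = 0.0196). In SLC it was at 52.8, 52.5 and 43.4 CPM against 44.3, 16.8 and 22.8 CPM, so that labelled replicate 1 reached into the IL-1β range (log2 fold change -0.84, SE 0.335, adjusted p = 0.101). Without labelled replicate 1 the SLC value was -1.35. Its row overlaps TIGD6 over 1648 bases, and with the strand setting of the counting not given, reads of that overlap cannot be assigned.

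PAPSS1 and PAPSS2, the synthases of PAPS, differed in size. PAPSS2 had log2 fold changes of -0.42 in SLC (SE 0.118) and -0.26 in MLC (SE 0.097), with all labelled libraries lower in both layers, and PAPSS1 was at -0.10 and -0.01. The carriers that bring PAPS into the Golgi were on the positive side. SLC35B2 had log2 fold changes of 0.44 in SLC (0.27 without labelled replicate 2) and 0.21 in MLC with overlapping groups, and SLC35B3 was at 0.18 and 0.25 with all labelled libraries higher in both layers. None of the 4 passed the test (adjusted p of at least 0.0669 over PAPSS1, PAPSS2, SLC35B2 and SLC35B3 in both layers).

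The layers, whose libraries are separate, gave similar values for the members. Same-numbered labelled libraries of the layers deviated together from their group means (r of 0.598, 0.206 and 0.165), so the layers may not be independent. The log2 fold change over all genes also moved with genomic span in both layers (Spearman's rho -0.491 in SLC and -0.48 in MLC). The part of either in the likeness of the layers was not tested. Of 39 members tested in both layers, 25 were negative in both, 12 positive in both and 2 opposite, so that 94.9% shared a sign, beside 87.6% of all 13524 genes tested in both. Spearman's rho of the log2 fold changes across these genes, which are not independent replicates, was 0.931 for the members and 0.867 for all genes. All labelled libraries were lower in both layers for 13 members (XYLT1, UGDH, SLC35D1, CHSY1, CSGALNACT2, CHST3, UST, DSEL, NDST1, HS2ST1, GLCE, SULF1 and PAPSS2) and higher in both for 4 (B3GAT3, CHST12, CHST14 and SLC35B3), which is 33.3% and 10.3% of the members beside 14.8% and 14.6% of all genes. All 13 members called in MLC had the same sign in SLC and an adjusted p under 0.05 with DESeq2 there, as did 99.6% and 79.3% of all genes called in MLC. Of the 13, 12 had non-overlapping SLC groups (92.3%, beside 83.7% of all genes called in MLC), SLC26A2 being the exception.

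The difference in effect between the layers was tested itself, as a layer by treatment interaction in all 12 libraries. edgeR called none of 40 members at an adjusted p under 0.05, none at an unadjusted p under 0.05 and DESeq2 none, beside 0% of 14565 genes adjusted and 2.27% unadjusted. The smallest unadjusted interaction p was 0.135, for EXT2, in edgeR's quasi-likelihood fit across all genes. Without SLC IL-1β + LOXL2 replicate 1, 10 members (7 higher, 3 lower) had an unadjusted p under 0.05, beside 27.3% of all genes, and none passed adjusted. The interaction estimates ran from -0.78 to 0.40 on the log2 scale, with a median SE of 0.197 (range 0.106 to 0.698). The lower end was CHST7, which was kept out of the SLC test for its low counts, and the next was B3GAT3 at -0.37. The log2 fold change with LOXL2 was smaller in size in MLC than in SLC for 32 of 39 members (82.1%), beside 77.7% of all genes.

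**Figure D3:**
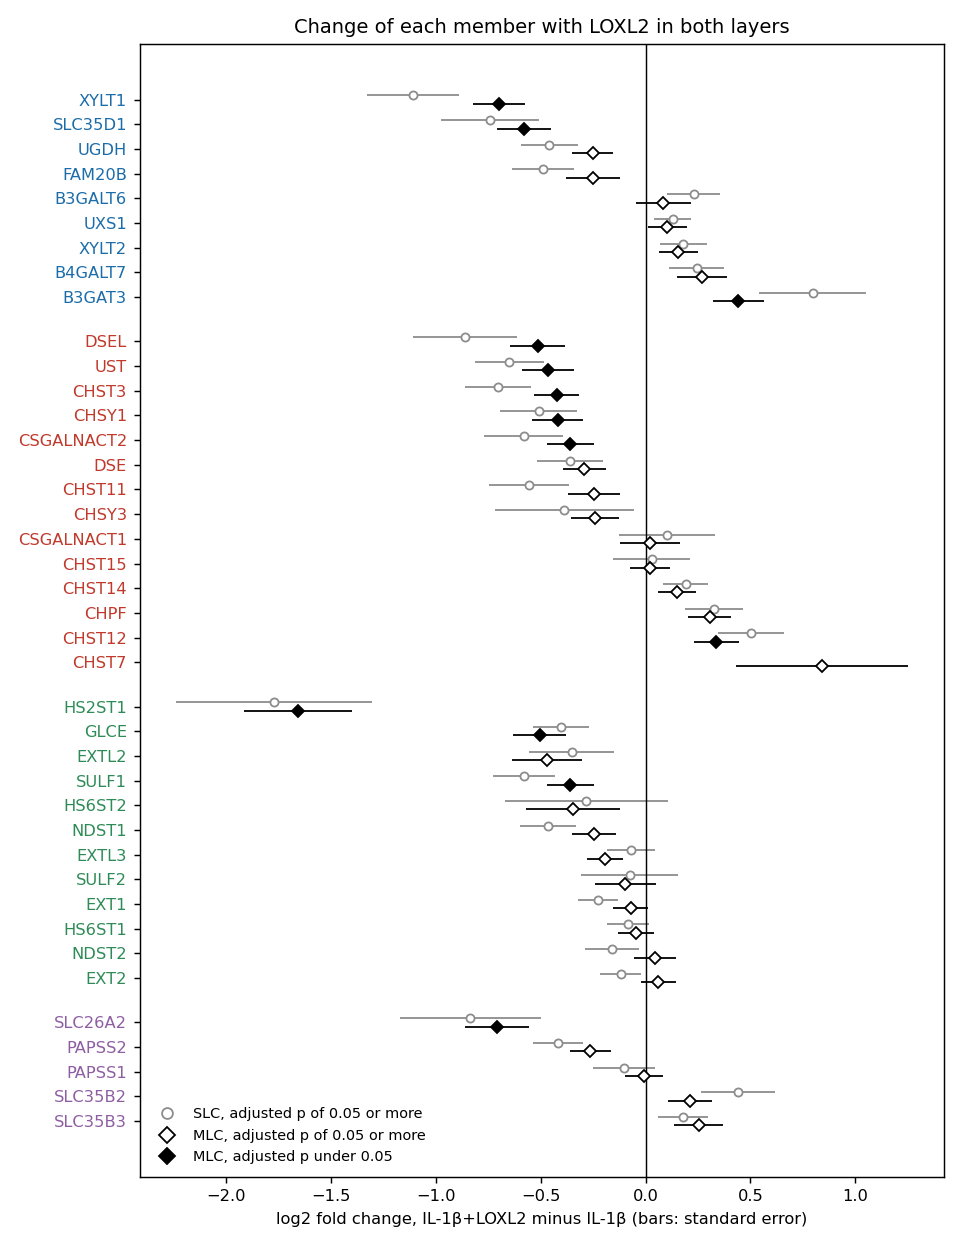
Points give the log2 fold change (IL-1β + LOXL2 minus IL-1β) of each member with its standard error, circles for SLC and diamonds for MLC, and filled diamonds mark the 13 members past an adjusted p of 0.05 in MLC. All 12 heparan sulfate members (green) lie below 0 in SLC (6 of them with the span trend removed), and HS2ST1 lies farthest left in both layers, at -1.77 and -1.66.

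The labelled libraries differed in how far they stood from the IL-1β libraries. In SLC, IL-1β + LOXL2 replicate 1 was the labelled library closest to the IL-1β mean for 31 of 39 members (79.5%), beside 75.6% of all genes, and in MLC replicate 1 was closest for 30 of 40 (75%), beside 69.7%. Without replicate 1 edgeR called 27 SLC members (7 higher, 20 lower), beside 62.7% of all genes, and 26 MLC members (6 higher, 20 lower), beside 48.5%. Without any other SLC library it called no SLC member. The labels do not say that equal replicate numbers in the layers share a culture, a transduction or an animal, and nothing in them says that replicates came from separate cultures or animals. The p-values therefore measure the spread between these samples, which may be technical.

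Genomic span, the distance from the first to the last base of a gene with its introns, moved with these values. Spearman's rho of the log2 fold change on span was -0.491 over 14134 genes in SLC and -0.48 over 13778 genes in MLC, and -0.462 over 39 and -0.424 over 40 members, all points sharing the same 6 libraries in a layer. The members are long genes, with a median span of 57.9 kb over the SLC set and 66.1 kb over the MLC set, beside 20.8 and 21.1 kb over all genes. Split at 66.1 kb, 17 of 19 longer members were negative in SLC, with a median of -0.39, and 10 of 20 shorter ones, with a median of 0.02. In MLC 16 of 20 longer members were negative (median -0.25) and 9 of 20 shorter ones (median 0.06), and 6 longer and 5 shorter members fell while 2 shorter ones rose. Over all genes of any span 11.7% fell and 9.88% rose by the test in MLC.

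With each library's span trend taken out, the median of the members was -0.05 in SLC (18 positive, 21 negative) and -0.01 in MLC (19 positive, 21 negative). The linker median was then -0.07 in SLC and -0.11 in MLC, both of opposite sign to the main fit. For chondroitin and dermatan sulfate it was -0.12 and 0.003, and for sulfate supply 0.13 and 0.02. In MLC 11 members then passed edgeR's test, beside 14.7% of all genes. HS2ST1 (-1.39), SLC26A2 (-0.66), XYLT1 (-0.40), DSEL (-0.60), SLC35D1 (-0.43) and CHST3 (-0.31) were lower and CHST12 (0.32) higher, as without this step. EXT2 (0.35), PAPSS1 (0.27), CHST15 (0.26) and UXS1 (0.30) passed with the trend removed and not otherwise. B3GAT3, GLCE, UST, CHSY1, CSGALNACT2 and SULF1 no longer passed, at 0.26, -0.23, -0.17, -0.19, -0.17 and -0.08. Among the members that fell in MLC, DSEL spans 11.4 kb and SLC26A2 30 kb, and XYLT1 spans 350 kb and HS2ST1 188 kb, while B3GAT3, which rose, spans 4.85 kb. Whether span itself or a property that goes with it set these values was not tested.

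**Figure D4:**
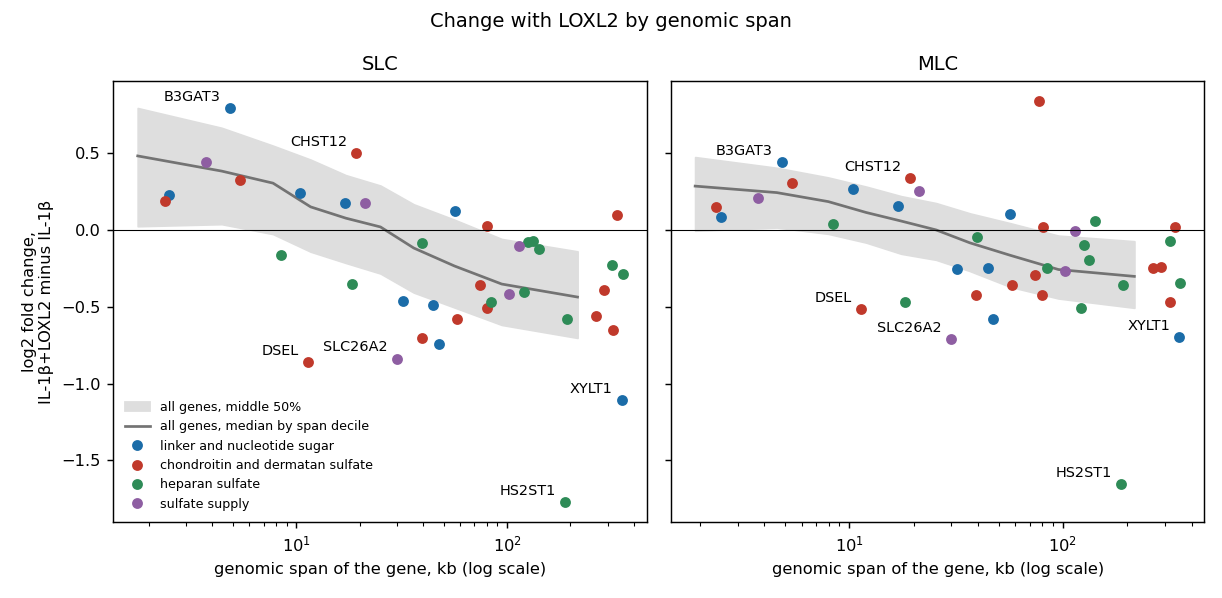
Log2 fold change (IL-1β + LOXL2 minus IL-1β) against genomic span in kb on a log scale, with the grey line for the median of all genes in 10 bins of span, the grey band for their middle 50% and points for the members. The MLC line runs from 0.29 at 1.9 kb to -0.30 at 216 kb, where line and band end. HS2ST1 lies below the band at 188 kb, and DSEL and SLC26A2 lie below it at 11.4 and 30 kb. XYLT1, at 350 kb, lies past the end of the band.

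Between the layers, most members were higher in MLC. Under IL-1β, 29 of 39 members had a positive log2 fold change (MLC minus SLC), beside 49.2% of all 14052 genes, with a median of 0.26 beside -0.01. Of the 39 members, 25 passed edgeR's test (21 higher, 4 lower; 64.1%), beside 46.6% of all genes (24% higher, 22.6% lower). DESeq2 called 25, beside 41.2%. Groups did not overlap for 32 members (24 higher, 8 lower), beside 55.7% of all genes (27.9% and 27.8%). Chondrocyte markers moved with the layer too, and 5 of the 6 tested were higher in MLC by the test under each treatment (median log2 fold change 2.56 under IL-1β and 2.63 with IL-1β + LOXL2). Of these 5, COL2A1 and COL9A1 entered the test through their MLC counts. In SLC both held 0 counts in every IL-1β library and at most 1 in any labelled library, and the medians include them. ACAN was at 351 to 435 CPM in MLC and 45.2 to 50.1 CPM in SLC under IL-1β, SOX9 at 77.9 to 92.9 against 19.7 to 22.1 CPM and HAPLN1 at 20.6 to 25 against 5.21 to 6.83 CPM. The chondrocyte marker sums given above were carried by COL11A1, at 1160 to 1220 CPM in MLC and 1170 to 1290 CPM in SLC, which did not pass. The part of these markers in the members' values was not tested.

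The linker group under IL-1β had 5 of 9 members higher in MLC and none lower by the test (55.6%). Over all genes 46.6% passed (24% higher, 22.6% lower). UGDH was at 476, 456 and 488 CPM in MLC and at 264, 303 and 299 CPM in SLC (log2 fold change 0.72, SE 0.0655, adjusted p = 6.25e-07). The others were B3GALT6 (0.79), UXS1 (0.53), B4GALT7 (0.38) and B3GAT3 (0.26). In the chondroitin and dermatan sulfate group 8 of 13 tested were higher and 1 lower (69.2%). CSGALNACT1 was at 7.82, 8.65 and 7.39 CPM in MLC and at 2.84, 2 and 2.27 CPM in SLC (log2 fold change 1.76, SE 0.171, adjusted p = 1.16e-06). Its paralog CSGALNACT2 was the member that was lower, at 67.7 to 77.6 CPM in MLC and 107 to 112 CPM in SLC (log2 fold change -0.59, SE 0.0649, adjusted p = 3.75e-06). The pair that starts chondroitin chains thus differed between the layers in opposite directions, with no overlap of libraries for either gene. CHSY3 was higher in MLC, at 19.7 to 22 CPM against 9.24 to 11 CPM (log2 fold change 1.01, SE 0.101, adjusted p = 1.46e-06).

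The heparan sulfate group under IL-1β had 4 of 12 members higher in MLC and 3 lower (58.3%), beside 46.6% of all genes (24% and 22.6%). EXT1 was at 139, 145 and 142 CPM in MLC and at 83.4, 92.3 and 92.4 CPM in SLC (log2 fold change 0.67, SE 0.0619, adjusted p = 6.66e-07). SULF1 was at 255 to 297 CPM in MLC and 170 to 174 CPM in SLC (log2 fold change 0.67, SE 0.0657, adjusted p = 1.32e-06). EXTL3 was also higher (0.32). NDST1 had the most negative log2 fold change, at 88.6, 82.7 and 88.6 CPM against 189, 194 and 179 CPM in SLC (-1.11, SE 0.0612, adjusted p = 3.22e-09), and its paralog NDST2 did not pass. EXTL2 (-0.75, SE 0.14, adjusted p = 0.000507) and SULF2 (-0.31, SE 0.118, adjusted p = 0.0431) were also lower. For SULF2 only 1 of 6 fits without 1 library passed (-0.15 and adjusted p = 0.186 without MLC replicate 2), and it did not pass with the span trend removed (-0.24, adjusted p = 0.0961).

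HS6ST2 had the largest log2 fold change between layers, 2.44 (SE 0.288, adjusted p = 7.82e-06), at 2.68 to 3.73 CPM in MLC and 0.413 to 0.691 CPM in SLC. With 8, 13 and 14 counts in these SLC libraries, it met the filter only with its MLC libraries. Its row overlaps PJA1, which held a mean of 287 counts per library where HS6ST2 held 27.5, so its reads are uncertain. In the sulfate supply group 4 of 5 members were higher in MLC and none lower (80%), beside 46.6% of all genes. PAPSS2, the form mutated in a brachyolmia-type skeletal dysplasia, was at 363, 433 and 384 CPM in MLC and at 254, 266 and 259 CPM in SLC (log2 fold change 0.60, SE 0.0684, adjusted p = 5.3e-06), and PAPSS1 (0.32), SLC26A2 (0.30) and SLC35B2 (0.28) followed.

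With IL-1β + LOXL2, 31 of 40 members were higher in MLC, beside 46.7% of all 14111 genes, with a median of 0.35 beside -0.03. Of the 40 members, 12 passed edgeR's test (10 higher, 2 lower; 30%), beside 16% of all genes (9.15% higher, 6.86% lower). The 12 include CHST7 (2.83-fold higher, SE of the log2 fold change 0.407, adjusted p = 0.0447), which had 5, 14 and 7 counts in the labelled SLC libraries and entered the test through its 17, 19 and 16 counts in MLC, and which passed in 1 of 6 fits without 1 library. DESeq2 called 16, beside 20.4%. Groups did not overlap for 22 members (20 higher, 2 lower), beside 35% of all genes (18% and 17%). With the replicate number as a block edgeR called 23 (21 higher, 2 lower), beside 27.5% of all genes, and same-numbered labelled libraries of the layers deviated together from their group means (r of 0.598, 0.206 and 0.165). Of these 6 libraries, 4 correlated best with their own number in the other layer. Replicate 1 was the labelled library closest to the IL-1β mean in both layers, and its part in these r values was not tested. Without SLC IL-1β + LOXL2 replicate 1 edgeR called 22, beside 32.1% of all genes. Without SLC replicate 3, MLC replicate 2 or MLC replicate 3 of the labelled libraries it called 5, 4 and 7, beside 7.36%, 7.2% and 7.73%.

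CSGALNACT1 (log2 fold change 1.67, SE 0.189, adjusted p = 0.00128), EXT1 (0.83, SE 0.101, adjusted p = 0.00172), HS6ST2 (2.38, SE 0.307, adjusted p = 0.00213), UGDH (0.92, SE 0.158, adjusted p = 0.00732) and PAPSS2 (0.75, SE 0.139, adjusted p = 0.01) were higher in MLC. NDST1 was at 81, 75.2 and 63.1 CPM in MLC and at 157, 116 and 137 CPM in SLC (-0.89, SE 0.162, adjusted p = 0.00913), and EXTL2 was also lower (-0.88, SE 0.214, adjusted p = 0.0307), in 2 of 6 fits without 1 library past the threshold. The libraries of the layers did not overlap for any of these 7 genes. The contrasts under the 2 treatments rest on separate libraries, and 11 of the 39 members tested in both (28.2%) were called in both, all with the same sign, beside 15.3% of all genes. These were B3GALT6, CHST3, CSGALNACT1, EXT1, EXTL2, HS6ST2, NDST1, PAPSS2, SULF1, UGDH and UXS1. HS6ST2, whose reads are uncertain as given above, met the filter only with its MLC libraries here too (7, 12 and 14 counts in labelled SLC).

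**Figure D5:**
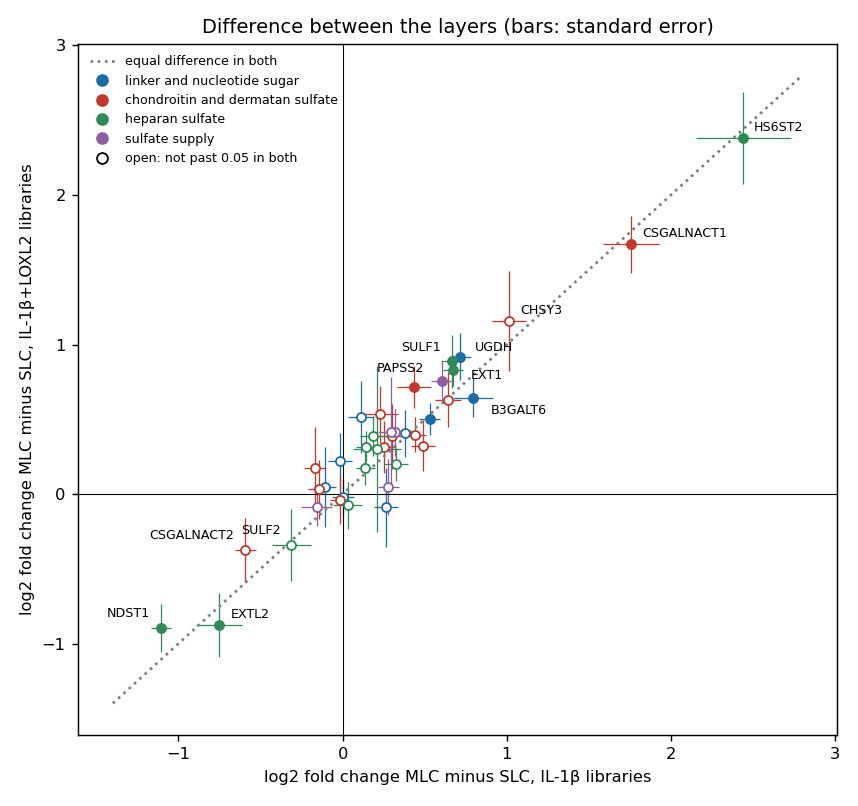
Each point is 1 of 39 members, with its log2 fold change between the layers (MLC minus SLC) in the IL-1β libraries on the x axis and in the IL-1β + LOXL2 libraries on the y axis, bars for the standard error and a dotted line for equal values. The 11 filled points passed in both, with HS6ST2 (whose row overlaps PJA1) and CSGALNACT1 at the upper right and NDST1 and EXTL2 at the lower left.

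Other genes of the pathway were read from 4 further lists, whose MLC calls stand beside 21.6% of all genes. In MLC with LOXL2, 2 of 16 (12.5%) tested genes of further synthesis fell, IMPAD1, a Golgi phosphatase that clears a by-product of sulfation (log2 fold change -0.38, adjusted p = 0.0234), and GFPT1, which starts hexosamine synthesis (-0.37, adjusted p = 0.0411). Among 4 tested keratan sulfate genes 1 fell (25%), B4GALT1, a galactosyltransferase (-0.75, adjusted p = 0.0196). The lysosomal enzymes that break the chains down gave 2 higher and 3 lower of 14 (35.7%), with IDUA (0.43, adjusted p = 0.0238) and HEXA (0.36, adjusted p = 0.0355) up and, among those lower, IDS (-0.52, adjusted p = 0.0277) and ARSB (-0.36, adjusted p = 0.0239). Of 18 proteoglycan core proteins 4 passed (22.2%). GPC3 (0.86, adjusted p = 0.0282) and COL18A1 (0.83, adjusted p = 0.0474) rose, and VCAN, the chondroitin sulfate carrier versican (-0.90, adjusted p = 0.0187), and HSPG2, the heparan sulfate carrier perlecan (-0.39, adjusted p = 0.0247), fell. The list medians lay between -0.07 and 0.07, near that of all genes. In SLC edgeR called no gene of these lists, with 5, 2, 7 and 7 past an unadjusted p of 0.05 (43.2% of all genes) and 2, 1, 3 and 6 by DESeq2 (33.1%) of 15, 5, 14 and 18 tested, in the same order.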

How the data were processed

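RNA-seq of cultured goat TMJ cells was analysed in 12 libraries, 3 per layer and treatment. Poly-T selected RNA was sequenced from both ends. The authors trimmed the reads and mapped them to the goat genome ARS1.2 (the submitters' processing notes name HISAT2). They counted them by gene with featureCounts and deposited raw counts, one table for each layer. Settings for strand and for reads mapping to several genes are not given in the sources used here, so members overlapping other genes (CHST3, CHST7, HS6ST1, HS6ST2, NDST1, SLC26A2 and SULF2 among them) are uncertain. Groups follow the sample labels. The authors' tables held 28910 rows, of which 1783 share a name with another row and were kept apart.

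Genes with 10 or more counts in 3 or more libraries of a fit entered edgeR 4.0.16 under R 4.3.3 (TMM scaling, glmQLFit, glmQLFTest, Benjamini-Hochberg over all genes, threshold 0.05), without a replicate block, in the 6 libraries of each comparison and in all 12 for the interaction. Standard errors were taken from the F statistic, as log2 fold change over its square root. CPM used TMM library sizes over the 12 libraries. CPM does not correct for transcript length, so levels were not compared between genes. Alternatives were DESeq2 1.42.0 (size factors in edgeR, and its Wald test, which the study used), filterByExpr (10 and 15 counts), no filter, the replicate block, all 12 libraries, each library left out, and the gene-span trend (lowess 0.3 of log2 CPM on log10 span) as an offset. Same-numbered libraries deviated together in every pair (r over 0.1) only between the layers with IL-1β + LOXL2, so the block is given beside that comparison. Coordinates are from the RefSeq annotation of ARS1.2. Genes given in full passed the threshold in a layer, were the largest increase or decrease of their group there, or were among the 5 smallest adjusted p in each direction between layers, and paralogs are given side by side. In the further lists at most 3 genes in each direction are named. A gene of these lists that met this rule is not reported here. The members, lists and alternatives were chosen with earlier results of these data known. The fit was also run on simulated counts in which 200 genes were changed. Those counts held no outlying library and no span trend, so the run cannot show how the fit handles either. Library totals limit the precision of low members such as CHST7 and HS6ST2.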

Additional observations from a re-analysis of the deposited data

How the results depend on the processing

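No call reversed under the alternatives run. The signs of the medians over all members held in all of them, except that of the interaction (0.07), which was -0.02 without SLC IL-1β + LOXL2 replicate 2. Medians of single groups did change sign in some, as given above for the span trend. With DESeq2's Wald test 18 members passed in SLC (33.1% of all genes), where edgeR called none, and the fit on all 12 libraries gave 22 in SLC (40.9%), 0 in MLC (0%) and 20 for MLC against SLC with IL-1β + LOXL2 (28.8%). With the replicate block that last comparison gave 23 (27.5%). In the block fits of the other comparisons the numbers share no known culture (same-numbered r from -0.216 to 0.133). There 0 members were called in SLC (0% of all genes) and 15 in MLC (29.4%). Between the layers under IL-1β there were 25 (41.3%), and for the interaction 0 (0%). Leaving out 1 library at a time gave 0 to 27 called members in SLC (0% to 62.7% of all genes), 0 to 26 in MLC (0% to 48.5%) and 4 to 22 between the layers with IL-1β + LOXL2 (7.2% to 32.1%). The higher ends came without IL-1β + LOXL2 replicate 1 of SLC, of MLC and of SLC again. With the span trend removed the median log2 fold change of the members was -0.049 in SLC and -0.0056 in MLC. The cause of these shifts was not tested. Fits without 1 library also hold fewer samples. Among the other fits of the members given in full, 75 in MLC lost a call, 1 gained one and 132 stayed on their side of the threshold, and in SLC 20 gained one and 71 did not. Between the layers 7 under IL-1β, all of SULF2, and 8 with IL-1β + LOXL2 (4 of EXTL2, 2 of NDST1 and 2 of PAPSS2) lost a call. Depth limits HS6ST2 in SLC (7 to 14 counts per library) and CHST7.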
